A study of Homo sapiens with 27 samples.

Results

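The 8 E2F transcription factor genes (E2F1 to E2F8) and the pocket protein genes RBL1 (p107) and RBL2 (p130) were followed across 9 groups of breast cancer cell cultures. These 10 genes were taken by name, after Ensembl IDs were matched to GENCODE symbols, out of the 60619 genes in the table, and all 10 passed the filter on low counts in every fit. MM134 (MDA-MB-134VI) and SUM44 (SUM44PE) are estrogen receptor-positive human cell lines of invasive lobular carcinoma, and their long-term estrogen-deprived (LTED) variants grow without estrogen. Each of the 9 groups had 3 libraries. MM134 gave its parental cells and the variants named A, B, D and E, and SUM44 gave the parental cultures SUM44PE and SUM44F and the variants named A and B. SUM44F is SUM44PE that had been kept for months in medium with full serum, and it is the parental culture from which the SUM44 LTED variants were derived. All 3 parental groups had been hormone-deprived for 3 days in charcoal-stripped serum before collection, whereas LTED cells lived in that serum, so a difference from parental cells cannot be told apart from a difference between short and lasting deprivation. Each variant is a single derivation and its libraries are wells of 1 culture, so p-values measure the spread between wells and do not speak for other derivations.

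E2F factors bind the promoters of genes needed for DNA replication and mitosis. E2F1, E2F2 and E2F3 activate these genes once cyclin-dependent kinases have phosphorylated the pocket proteins, E2F4 and E2F5 carry p107 or p130 to the same promoters in resting cells and repress them, E2F6 represses without pocket proteins, as part of a Polycomb complex, and the atypical E2F7 and E2F8 bind without a dimerization partner and shut E2F targets off late in S phase. In estrogen receptor-positive breast cancer cells, estrogen drives this switch through cyclin D1, and estrogen withdrawal normally arrests cells before it.

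The libraries held 28583554 to 134882175 counts (median 44018412). Within SUM44 LTED-A, replicates 2 and 3 were no further apart than sampling noise allows (chi-square per degree of freedom 0.312, against 2.35 to 58.3 in the other 26 replicate pairs) and were counted as 1 sample, so SUM44 LTED-A has 2 samples. Where 1 library at a time was left out, these replicates were left out together and are named replicate 2. A fit without either sample left SUM44 LTED-A 1 sample and no spread of its own. The 6 luminal epithelial markers (KRT8, KRT18, KRT19, EPCAM, GATA3 and FOXA1) summed to 4013 to 7033 CPM (read counts scaled to a common library size) in every sample, and the 3 basal markers (KRT5, KRT14 and TP63) to at most 3.54 CPM. Replicate 1 of SUM44F stood apart: its 5 fibroblast markers (COL1A1, COL1A2, COL3A1, DCN and LUM) summed to 350 CPM, against 9.28 and 8.07 CPM in its fellow replicates, and the immune markers PTPRC and CD14 stood at 2.6 and 1.82 CPM, against at most 0.423 and 0.0586 CPM. The fibroblast sum was also raised in MM134 parental replicate 3 (35.4 CPM, against 20.7 and 23.4) and MM134 LTED-D replicate 2 (27.4, against 12.6 and 12.4). In MM134 LTED-A, LYZ, a lysozyme gene of myeloid and some epithelial cells, was at 9.23 to 10.3 CPM, against 0.172 to 0.356 CPM in parental cells, while PTPRC was at most 0.186 CPM, CD14 at most 0.112 CPM and CD3E at 0 there. LYZ was also above parental cells in LTED-B (1.44 to 2.09 CPM) and LTED-D (0.604 to 0.775 CPM). In LTED-E the only immune marker that passed the filter was higher than in parental cells (log2 fold change 2.98). The part of these markers in the results was not tested. Values without SUM44F replicate 1 are given beside the results that rest on SUM44F, and no call of a member in MM134 LTED cells against parental cells was lost when any 1 library was left out. In bulk RNA, fewer cells of a kind (here, of cells in a given phase of the cell cycle) and less RNA per cell cannot be told apart.

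On hg38 with GENCODE annotation, E2F1 is at chr20:33675477-33686385 and RBL1 at chr20:36996349-37095997, both on the minus strand, E2F2 at chr1:23506438-23531233 (minus), E2F3 at chr6:20401879-20493714 (plus), E2F4 at chr16:67192155-67198918 (plus), RBL2 at chr16:53433977-53491648 (plus), E2F6 at chr2:11444375-11466177 (minus), E2F7 at chr12:77021248-77065569 (minus) and E2F8 at chr11:19224063-19241620 (minus). Counts are for whole genes, exons and UTRs together. Some members share DNA with other genes: RBL2 overlaps AKTIP (560 to 22375 counts per library) and E2F5 overlaps RBIS (1202 to 5800), each on the opposite strand, and E2F3 holds the small RNA copy RN7SL128P (450 to 4312), also on the opposite strand. The libraries mark the strand, but the strand setting of the counting is not given in the sources used here. Processed pseudogenes of E2F3, E2F4 and E2F6 had at most 42 counts in any library.

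E2F factors bind the promoters of some E2F genes themselves, so the promoters were searched for an E2F site, written as TTTCCCGC, TTTCGCGC, TTTGCCGC or TTTGGCGC on either strand, in the 250 bases before the transcription start (RefSeq, GRCh38.p14). RefSeq promoters were matched for 8 members (10 promoters). E2F1, E2F2, E2F3 and RBL1 held such a site, in 4 of the 10 promoters, and E2F4, E2F6, E2F7 and RBL2 did not, while 979 of 35116 promoters (2.79%) of all genes held one. The other matched promoter of E2F3 (chr6:20403364-20403613) held none. A match is only a match of letters, and its absence says nothing about binding elsewhere. E2F5 and E2F8 are named without a sequence. The 4 promoters with a site are printed 5′ to 3′ on the strand of the gene, ending at the base before the start, because these are the members with the letters of their own factors beside the start, and the capitals mark the sites.
E2F1, chr20:33686386-33686635, minus strand: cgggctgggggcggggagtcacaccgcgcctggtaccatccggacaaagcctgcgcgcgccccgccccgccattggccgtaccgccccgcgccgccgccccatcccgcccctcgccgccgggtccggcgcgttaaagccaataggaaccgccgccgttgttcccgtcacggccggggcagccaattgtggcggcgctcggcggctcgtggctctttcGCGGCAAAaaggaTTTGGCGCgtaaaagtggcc
E2F2, chr1:23531234-23531483, minus strand: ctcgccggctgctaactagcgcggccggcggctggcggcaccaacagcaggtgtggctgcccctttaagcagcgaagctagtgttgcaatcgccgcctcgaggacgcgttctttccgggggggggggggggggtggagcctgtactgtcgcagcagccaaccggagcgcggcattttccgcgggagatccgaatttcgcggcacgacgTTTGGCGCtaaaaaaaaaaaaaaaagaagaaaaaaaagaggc
E2F3, chr6:20401629-20401878, plus strand: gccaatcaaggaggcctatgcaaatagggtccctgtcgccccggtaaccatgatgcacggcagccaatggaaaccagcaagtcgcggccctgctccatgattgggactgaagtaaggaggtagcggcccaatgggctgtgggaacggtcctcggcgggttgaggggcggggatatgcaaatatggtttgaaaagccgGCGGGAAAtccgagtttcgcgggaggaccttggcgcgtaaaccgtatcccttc
RBL1, chr20:37095998-37096247, minus strand: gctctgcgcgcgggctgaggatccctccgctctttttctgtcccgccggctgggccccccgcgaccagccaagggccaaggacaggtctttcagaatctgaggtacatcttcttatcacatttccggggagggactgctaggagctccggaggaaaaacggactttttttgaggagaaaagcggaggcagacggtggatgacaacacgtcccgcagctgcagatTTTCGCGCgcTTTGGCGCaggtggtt
The sites began 33 and 20 bases before the start in E2F1, 42 in E2F2, 53 in E2F3 and 26 and 16 in RBL1, so in all 4 genes they lay within the last 53 bases. No pair of these sites overlapped.

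Levels are given as CPM for 1 gene across samples, and as CPM per kb of the canonical transcript where genes are compared with each other. E2F1 had the highest level per length of the E2F genes in MM134 parental cells (40.5 ± 0.516 CPM per kb, SD, n = 3), followed by E2F2 (11.8) and E2F5 (11.2), and E2F7 had the lowest (2.76). Over the union of its exons, E2F5 was at 3.68 CPM per kb there and ninth of the 10 members. In SUM44F, E2F5 (15.4 CPM per kb), E2F1 (13.7) and E2F4 (12.6) lay close together, and the place of E2F5 again depends on the length used, since over the union of its exons its level was 5.05 CPM per kb and below those of E2F1 and E2F4. The 3 activators together made up 60.3% of the summed per-length level of the 8 E2F genes in MM134 parental cells and 36.1% in SUM44F. This share was 54.2% to 57.9% in the 4 MM134 LTED variants, 55.8% in SUM44 LTED-A and 45.7% in SUM44 LTED-B. In the other parental culture, SUM44PE, it was 43.2% (42.3% to 44.2%), closer to LTED-B (45.4% to 46%) than to SUM44F. All these shares rest on canonical lengths. Over the union of exons, E2F4 was at 7.42 CPM per kb in SUM44F and E2F5 at 5.05, while E2F1 stayed at 13.7. The share of the activators would be larger with that length, and its size was not counted.

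**Figure D1:**
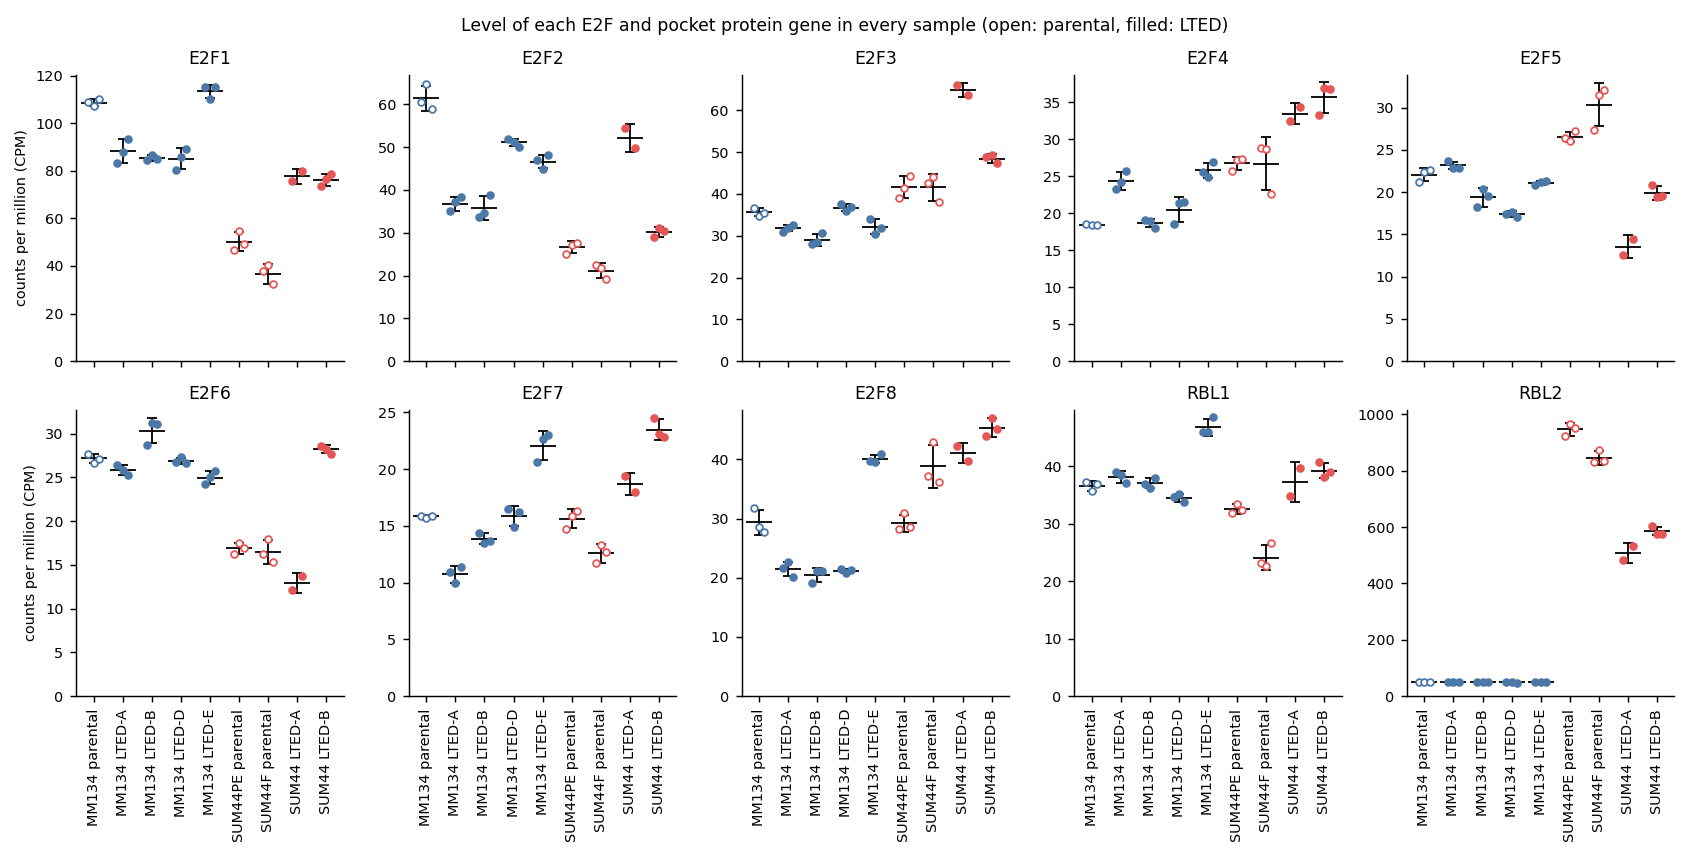
Level of each member (CPM, linear axis from 0) in every sample of the 9 groups, with MM134 in blue, SUM44 in red, parental cells as open and LTED cells as filled points, and black bars for the mean and SD. E2F1 and E2F2 are lowest in SUM44F, E2F7 and E2F8 are higher in MM134 LTED-E than in the other MM134 variants, and RBL2 is between 483 and 967 CPM in SUM44 groups and near 50 CPM in MM134 groups.

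A gene was called when it passed 1.5-fold and its adjusted p was under 0.001 (edgeR quasi-likelihood test, two-sided, Benjamini-Hochberg over all genes tested). In MM134, 1 of 10 members was called in LTED-A, where 20.3% of all genes tested were called (10.5% higher and 9.82% lower), and 1 in LTED-B, where 15.9% were (8.11% higher and 7.75% lower). The call was E2F2, lower, in both cases. None was called in LTED-D, where 17.6% of all genes were (9.63% higher and 7.95% lower), or in LTED-E, where 19% were (8.71% higher and 10.3% lower). LTED-D had 5 members with an unadjusted p under 0.05 and LTED-E had 7, and DESeq2 also called 0 members in each. The share of all genes with an unadjusted p under 0.05 was not counted, so these 2 counts cannot be set against it. In SUM44, 6 of 10 members were called in LTED-A, where 13.7% of all genes were called (6.39% higher and 7.28% lower), and 5 in LTED-B, where 17.3% were (8.69% higher and 8.57% lower), against the same SUM44F libraries. Of these, E2F1, E2F2, E2F3 and RBL1 rose and E2F5 and RBL2 fell in LTED-A, and E2F1, E2F6, E2F7 and RBL1 rose and E2F5 fell in LTED-B. The median log2 fold change of the members was 0.45 in SUM44 LTED-A and 0.47 in LTED-B, against -0.057 and -0.093 over all genes tested, and it lay between -0.18 and 0.05 in the 4 MM134 variants, which share their parental libraries. With SUM44F replicate 1 left out, 5 members were called in each SUM44 variant. Over all genes, 3245 were called in LTED-A and 4223 in LTED-B in that fit, against 3669 and 4632 with every library. The share of all genes called in both variants without this library was not counted, here or for the gene lists below.

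**Figure D2:**
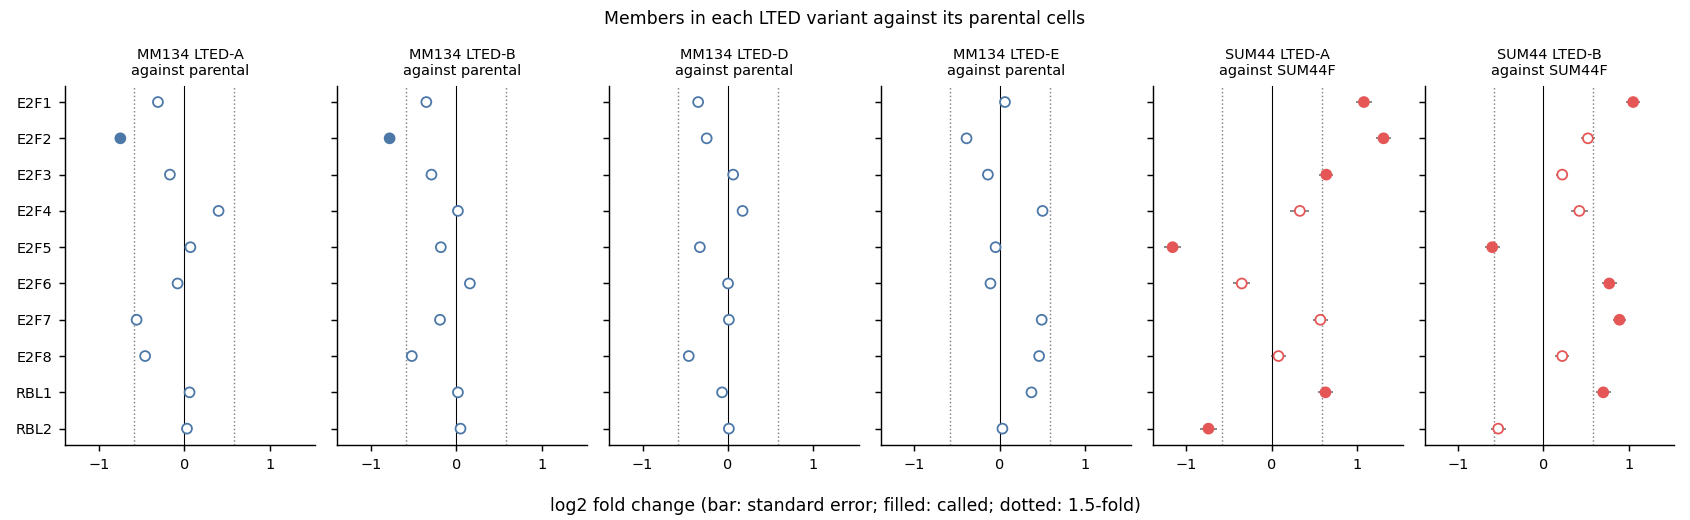
Log2 fold change of each member in the 6 LTED variants against their parental cells, with bars for the standard error, filled points for called genes and dotted lines at a 1.5-fold change. The MM134 panels hold 2 filled points, both E2F2, and the SUM44 panels hold 6 and 5.

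E2F1, an activator whose own promoter is an E2F target, rose about as much in both SUM44 variants. It stood at 37.7, 40.3 and 32.2 CPM in SUM44F, at 75.5 and 80 CPM in LTED-A and at 73.6, 76.7 and 78.5 CPM in LTED-B. Each LTED sample lay above each SUM44F sample, and the log2 fold changes were 1.08 ± 0.09 (SE; edgeR, adjusted p = 5.91e-06) and 1.05 ± 0.08 (edgeR, adjusted p = 3.05e-06). Leaving out SUM44F replicate 1 gave 1.10 and 1.07. Between the variants E2F1 differed by 0.03 ± 0.09 (edgeR, adjusted p = 0.858), less than its spread between wells. MM134 cells had more E2F1 from the start, 109, 107 and 110 CPM in parental cells. LTED-A (83.2 to 93.3 CPM), LTED-B (84.3 to 86.5) and LTED-D (80.2 to 89) lay below every parental library, at -0.31, -0.35 and -0.35 on the log2 scale, values that did not reach 1.5-fold, while LTED-E (110 to 115) overlapped parental cells.

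E2F2, an activator like E2F1, was the only member called in opposite directions in the 2 cell lines. In MM134 its level was 60.6, 64.7 and 59 CPM among the parental libraries, and it fell to 35, 37.1 and 38.3 CPM in LTED-A and to 33.7, 34.5 and 38.9 CPM in LTED-B, with log2 fold changes of -0.75 ± 0.05 (edgeR, adjusted p = 1.61e-10) and -0.78 ± 0.05 (edgeR, adjusted p = 1.65e-10). LTED-D had 50.1 to 51.9 CPM and LTED-E 44.9 to 48.1 CPM, below every parental library but within 1.5-fold (log2 fold changes -0.25 and -0.39). In SUM44 it rose from 22.4, 21.8 and 19.1 CPM in SUM44F to 54.4 and 49.9 CPM in LTED-A (log2 fold change 1.31 ± 0.09, edgeR, adjusted p = 1.23e-06). LTED-B had 29, 31.2 and 30.5 CPM, above every SUM44F library but within 1.5-fold (0.52 ± 0.08). The variants themselves differed, with E2F2 higher in LTED-A than in LTED-B by 0.79 ± 0.09 (edgeR, adjusted p = 9.83e-05). That call was lost without LTED-B replicate 1 (0.76, edgeR, adjusted p = 0.0011). It was also lost without LTED-A replicate 1 (0.75), a fit that left LTED-A 1 sample.

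E2F3, the remaining activator, rose in SUM44 LTED-A, from 42.7, 44.1 and 38 CPM in SUM44F to 66.1 and 63.6 CPM (log2 fold change 0.64 ± 0.08, edgeR, adjusted p = 8.46e-05). LTED-B stood between them at 47.3 to 49.3 CPM (0.22 ± 0.07). In MM134 the group means were between 29.0 and 36.8 CPM and no variant passed the threshold. Summed per length, the 3 activators had 26.0 CPM per kb in SUM44F, 51.8 in SUM44 LTED-A and 43.8 in SUM44 LTED-B. In MM134 the sum was 59.4 CPM per kb in parental cells and 44.3 to 57.4 in the variants, so the groups of the cell lines that stood far apart as parental cells lay closer as LTED cells.

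**Figure D3:**
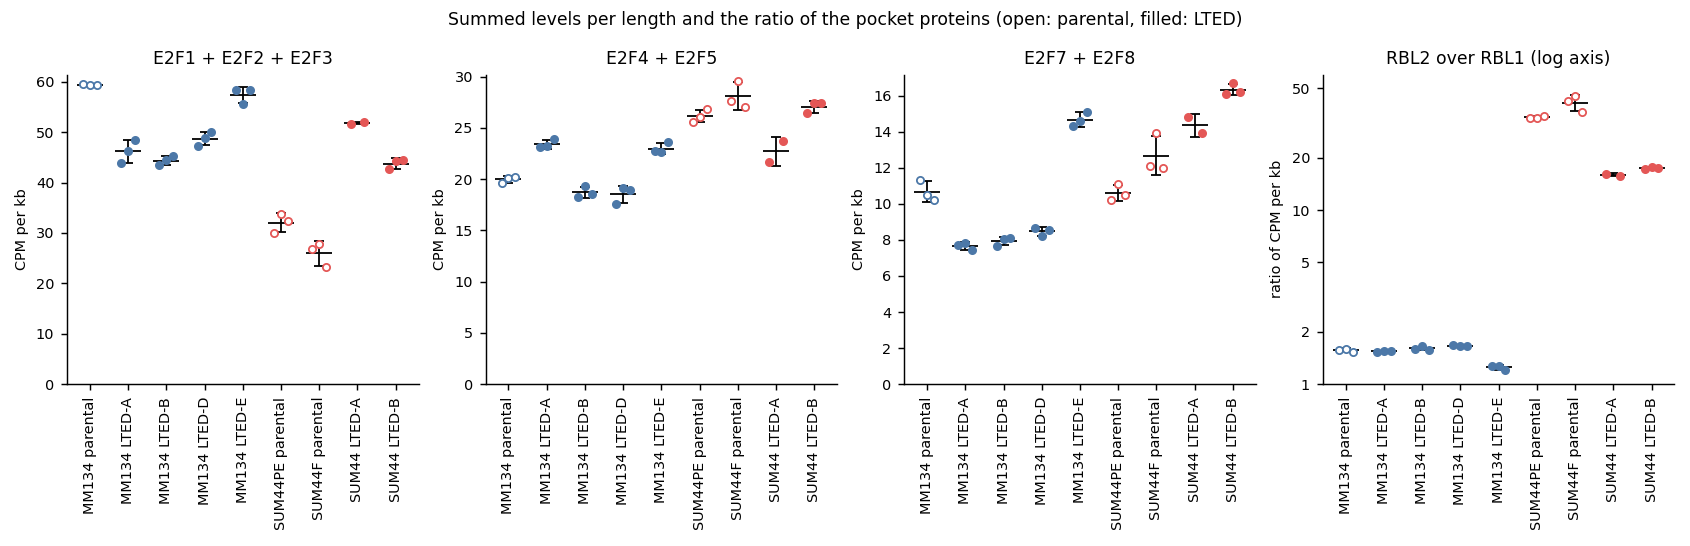
Summed CPM per kb of the activators, of E2F4 and E2F5, and of E2F7 and E2F8, and the ratio of RBL2 to RBL1 (log axis), in every sample of the 9 groups, with open points for parental and filled points for LTED cells and black bars for the mean and SD. The activators' sum is lowest in SUM44F (23.2 to 27.9), and the ratio is 1.20 to 1.69 in all MM134 samples and 15.7 to 45.4 in SUM44 samples.

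The repressors E2F4 and E2F5 did not move together. E2F4, the most abundant E2F of resting cells in many tissues, passed the threshold in no LTED variant. It lay at 18.4 to 18.5 CPM in parental MM134, 23.3 to 25.7 CPM in LTED-A and 24.9 to 26.9 CPM in LTED-E, with log2 fold changes of 0.40 and 0.50 and no overlap with parental cells. In SUM44F it spread from 22.6 to 28.8 CPM, and it stood at 32.4 and 34.4 CPM in LTED-A and 33.2 to 36.9 CPM in LTED-B (0.33 and 0.42). E2F5 (on chromosome 8), which pairs mostly with p130, fell in SUM44. It had 27.4, 31.5 and 32.1 CPM in SUM44F, 12.6 and 14.5 CPM in LTED-A and 20.9, 19.4 and 19.5 CPM in LTED-B. All LTED samples lay below all SUM44F samples, with log2 fold changes of -1.16 ± 0.10 (edgeR, adjusted p = 1.08e-05) and -0.60 ± 0.09 (edgeR, adjusted p = 3.14e-04). The LTED-B value sat just past 1.5-fold, and the call was lost in 6 of the 8 fits that left out 1 library (log2 fold change -0.67 to -0.56, highest adjusted p = 0.003 by edgeR), among them those without SUM44F replicate 2 or 3, without any 1 of the LTED-B replicates or without LTED-A replicate 1. It was also lost by DESeq2 (-0.57). Without SUM44F replicate 1 the values were -1.23 and -0.67, both called. In MM134, E2F5 was between 17.0 and 23.7 CPM in every sample. Its opposite-strand neighbour RBIS shares part of its DNA, and what part of the counts it could take was not tested.

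E2F6 was the member on which the SUM44 variants disagreed most. It had 16.2, 18 and 15.3 CPM in SUM44F, 12.1 and 13.7 CPM in LTED-A and 28.6, 28.3 and 27.7 CPM in LTED-B. It rose in LTED-B (log2 fold change 0.77 ± 0.09, edgeR, adjusted p = 4.18e-05), lay within 1.5-fold in LTED-A (-0.35 ± 0.10, edgeR, adjusted p = 0.0172), and was lower in LTED-A than in LTED-B by 1.12 ± 0.10 on the log2 scale (edgeR, adjusted p = 1.98e-05). In the comparison of the variants, E2F6 and E2F2 were the 2 of 10 members called, where 7.42% of all genes were (3.56% higher and 3.86% lower). The genes around E2F6 differed between the variants too: of the 40 nearest genes whose mean reached 5 CPM, spread over 11.8 Mb of chromosome 2, 33 were lower in LTED-A than in LTED-B, 17 of them called, and 1 was called higher. Their median log2 difference was -0.44, and 10 of the 40 lay further below 0 than E2F6. Against SUM44F the median of these neighbours was -0.43 in LTED-A and 0.32 in LTED-B. PDIA6, for example, had log2 fold changes of -0.66 (LTED-A) and 0.84 (LTED-B), and ROCK2 had -1.06 and -0.13. What the surrounding genes have to do with the change of E2F6 was not tested. In MM134, E2F6 stayed between 24.2 and 31.2 CPM. None of the 12 genes listed as partners of E2F6 in its Polycomb complex (PCGF6, L3MBTL2, MGA, MAX and others) was called in both SUM44 variants or in 3 MM134 variants. Of all genes tested, 3.87% were called higher and 4.75% lower in both SUM44 variants, and 6.66% and 6.83% in at least 3 MM134 variants. For 12 genes, a count of 0 is near these shares. In SUM44 LTED-B, 2 of the 12 were called higher and 0 lower, where 8.69% and 8.57% of all genes were. When SUM44F replicate 1 was left out, 1 of the 12 was called higher in both SUM44 variants.

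E2F7 and E2F8, the atypical repressors, were the members whose largest difference among the MM134 variants passed both 1.5-fold and the adjusted p. E2F7 stood at 15.9, 15.7 and 15.9 CPM in parental MM134, at 10.9, 9.93 and 11.4 CPM in LTED-A, 13.5 to 14.4 CPM in LTED-B, 14.9 to 16.5 CPM in LTED-D and 20.6, 22.6 and 23 CPM in LTED-E. LTED-A was thus below and LTED-E above every parental library, by -0.56 and 0.49 on the log2 scale, and neither passed 1.5-fold, although LTED-A did without its replicate 3 (-0.59). The largest difference among the 4 variants was 1.05 (edgeR, adjusted p = 9.35e-11). E2F8 had 31.7, 28.6 and 27.7 CPM in parental cells, 19.1 to 22.6 CPM across LTED-A, LTED-B and LTED-D, and 39.7, 39.6 and 40.9 CPM in LTED-E, with a largest difference of 0.98 (edgeR, adjusted p = 5.44e-12). E2F7 and E2F8 were the 2 of 10 members called in this test, a share close to the 19.6% of all genes called. With no minimum fold, 9 of the 10 members passed the adjusted p, so the minimum of 1.5-fold is what set E2F7 and E2F8 apart. Without LTED-B replicate 3, E2F2 was called as well (0.59).

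In SUM44, E2F7 rose in LTED-B, from 11.7, 13.3 and 12.7 CPM in SUM44F to 24.5, 23.1 and 22.8 CPM (log2 fold change 0.89 ± 0.08, edgeR, adjusted p = 9.73e-06). LTED-A stood at 19.4 and 18 CPM, at 0.57 ± 0.09 (edgeR, adjusted p = 6.17e-04), just inside 1.5-fold, and was called by DESeq2 (0.61), with RLE size factors (0.61), with thinned counts (0.61), with SUM44PE in the fit (0.59) and without SUM44F replicate 3 (0.60). E2F8 had 36.2 to 43.0 CPM in SUM44F, 42.2 and 39.8 CPM in LTED-A and 43.9 to 47.0 CPM in LTED-B and was called in neither. The summed level per length of E2F7 and E2F8 was 12.7 CPM per kb in SUM44F, 14.3 in LTED-A and 16.3 in LTED-B, and 14.7 in MM134 LTED-E against 7.67 to 8.49 in the other MM134 variants.

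RBL2, which encodes p130, the pocket protein of quiescent cells, separated the cell lines more than any other member. It had 830, 875 and 834 CPM in SUM44F and 50.1, 48.7 and 48.6 CPM in parental MM134, 17.2-fold lower in MM134 (log2 difference -4.11 ± 0.05, edgeR, adjusted p = 2.89e-27). RBL2 fell in SUM44 LTED-A, to 483 and 532 CPM (log2 fold change -0.74 ± 0.10, edgeR, adjusted p = 1.90e-04), and stood at 603, 576 and 577 CPM in LTED-B (-0.53 ± 0.09, edgeR, adjusted p = 5.47e-04), just inside 1.5-fold. The LTED-A call was lost without SUM44F replicate 2 (-0.70, edgeR, adjusted p = 0.002) and without LTED-B replicate 2 (-0.74, edgeR, adjusted p = 0.0012). Without SUM44F replicate 1 the values were -0.75 and -0.55, the first of them called. In MM134 it was called in no variant, with 47.9 to 51.2 CPM over all 15 libraries and log2 fold changes of 0.01 to 0.05.

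The genes next to RBL2 on chromosome 16 were also far higher in SUM44F than in MM134 parental cells. CHD9, a chromatin remodeller, had a mean of 506 CPM in SUM44F and 44.4 CPM in MM134 (log2 difference -3.51), FTO, an RNA demethylase, 268 and 24.9 CPM (-3.43), AKTIP 153 and 17.4 CPM (-3.14), and RPGRIP1L 124 and 25.5 CPM (-2.28). Over the 40 nearest genes (10.2 Mb) the median was -0.91, and 4 lay further below 0 than RBL2. In the LTED variants these 4 genes did not follow RBL2: CHD9 moved by 0.04 (LTED-A) and 0.07 (LTED-B) on the log2 scale, FTO 0.11 and -0.06, AKTIP 0.19 and 0.22, and RPGRIP1L 0.32 and 0.25, and none was called. Of all 40 neighbours, 9 were called lower and 1 higher in LTED-A, where 7.28% and 6.39% of all genes were, and 7 lower and 4 higher in LTED-B, where 8.57% and 8.69% were. Those lower in LTED-A included IRX3 (-0.80) and the unnamed lncRNA ENSG00000261804 (-1.52), and the median of the 40 was -0.02 in LTED-A and 0.12 in LTED-B. AKTIP, CHD9, FTO, RPGRIP1L, IRX3, PDIA6 and ROCK2 were named after their values were seen.

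**Figure D4:**
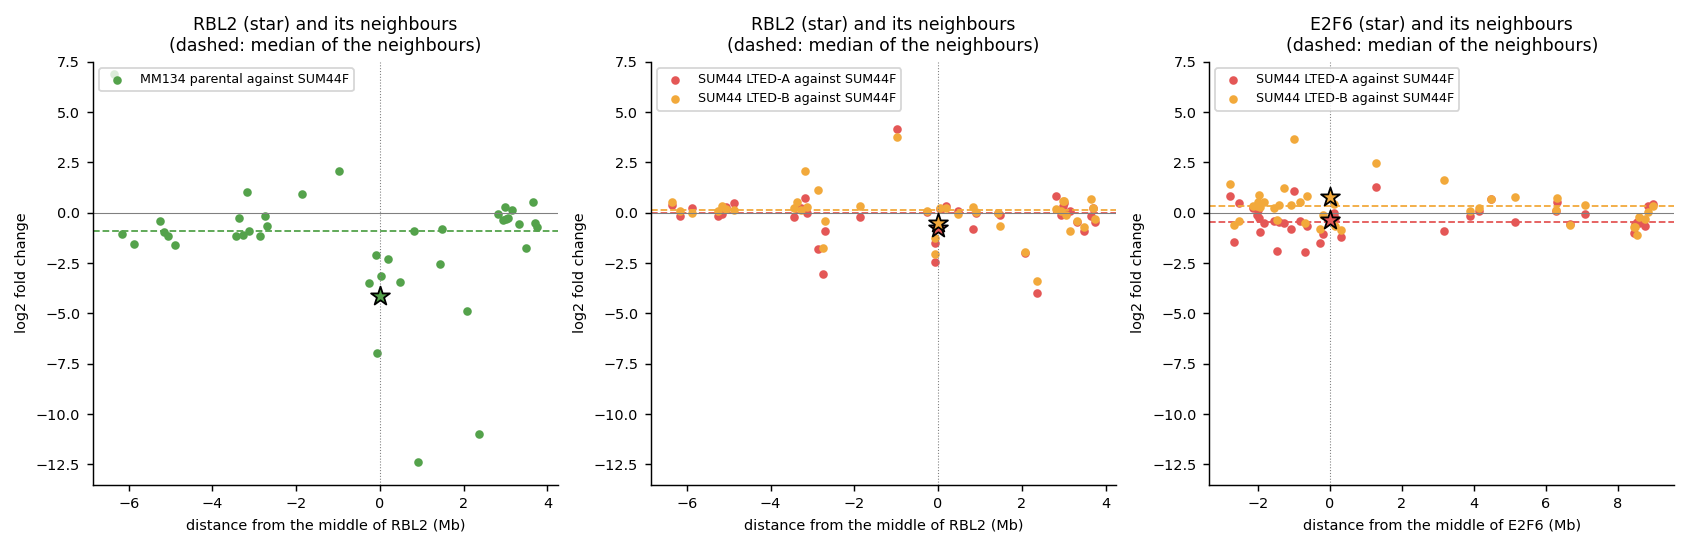
Log2 fold change of RBL2 (left and middle) and E2F6 (right), drawn as stars, and of their 40 nearest genes with at least 5 CPM, drawn as dots, against distance from the member in Mb, with dashed lines at the median of the neighbours. Between the parental cells the genes nearest to RBL2 lie far below 0 with it, in SUM44 LTED cells most of them lie near 0, and the neighbours of E2F6 have medians of -0.43 (LTED-A) and 0.32 (LTED-B).

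RBL1, which encodes p107, the pocket protein that is itself made as cells enter S phase, rose in both SUM44 variants. It had 23.1, 22.6 and 26.6 CPM in SUM44F, 34.8 and 39.7 CPM in LTED-A and 40.7, 38.1 and 38.9 CPM in LTED-B, with log2 fold changes of 0.63 ± 0.09 (edgeR, adjusted p = 4.27e-04) and 0.70 ± 0.09 (edgeR, adjusted p = 7.97e-05). The LTED-A call was lost in 6 of the 8 fits that left out 1 sample (0.53 to 0.77). Among them were those without SUM44F replicate 1 (0.60) or 2 (0.60) and without any 1 of the LTED-B replicates (0.63). Another was the fit without LTED-A replicate 2 (0.53), which left LTED-A 1 sample. The LTED-B call was kept without SUM44F replicate 1 (0.67). In MM134, RBL1 was highest in LTED-E, at 45.9 to 48.5 CPM against 35.6 to 37.2 CPM in parental cells, within 1.5-fold (0.37 ± 0.04). The per-length ratio of RBL2 to RBL1 was 41.4 ± 4.38 (SD, n = 3) in SUM44F, 34.1 ± 0.445 in SUM44PE, 16 ± 0.371 for the 2 samples of LTED-A and 17.5 ± 0.220 for LTED-B. In MM134 it was 1.57 ± 0.0294 in parental cells and 1.25 to 1.67 in the variants. The samples of SUM44 LTED cells thus lay below all SUM44 parental samples and above all MM134 samples. With union exon lengths, which scale all groups alike, the ratio was 25.8 in SUM44F and 0.987 in MM134 parental cells.

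The responses of the cell lines, taken as the mean log2 fold change over the 4 MM134 variants minus that over the 2 SUM44 variants, differed for 5 of 10 members, where 21% of all genes were called (10.9% higher and 10.1% lower in MM134). E2F1 differed by -1.31 ± 0.08 (edgeR, adjusted p = 3.54e-13), with a mean of -0.24 in MM134 and 1.07 in SUM44. E2F2 differed by -1.46 ± 0.07 (edgeR, adjusted p = 2.19e-14), with means of -0.54 and 0.91. E2F7 differed by -0.80 (means -0.06 and 0.73), E2F5 by 0.75 (means -0.13 and -0.88) and RBL2 by 0.66 (means 0.03 and -0.64). For E2F7 the MM134 mean covers variants that went opposite ways, from -0.56 in LTED-A to 0.49 in LTED-E. The LTED-E value was near that of SUM44 LTED-A (0.57), so the difference in E2F7 does not hold for each variant. E2F3 (-0.57) and RBL1 (-0.58) lay just inside 1.5-fold, and both were called by DESeq2 (-0.62 and -0.63). Without SUM44F replicate 1, E2F3 was called as well (-0.59), and without SUM44 LTED-A replicate 1 the call of RBL2 was lost (0.57). E2F4, E2F6 and E2F8 were not called, at -0.11, -0.23 and -0.40. The median of all genes tested was 0.067.

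Between the parental cultures, 5 of 10 members were called in MM134 against SUM44F, where 38.1% of all genes were called (19.1% higher and 19% lower). Besides RBL2, E2F1 (log2 difference 1.57 ± 0.07), E2F2 (1.55 ± 0.06), E2F6 (0.72 ± 0.06) and RBL1 (0.60 ± 0.06) were higher in MM134. The call of RBL1 was lost without SUM44F replicate 1 (0.57) or 2 (0.55) and without MM134 parental replicate 1 (0.57) or 3 (0.57), and without SUM44F replicate 3 E2F4 was called lower in MM134 (-0.66). The cell line and all that differs between the cultures cannot be told apart.

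Between the parental SUM44 cultures, SUM44PE and SUM44F, edgeR and DESeq2 called 0 of 10 members, where edgeR called 5.57% of all genes (2.85% higher and 2.72% lower), and 6 members had an unadjusted p under 0.05. How many of all genes had an unadjusted p that low was not counted. E2F1 had 46.8, 54.5 and 49.1 CPM in SUM44PE (log2 difference 0.44 ± 0.08 from SUM44F, edgeR, adjusted p = 0.002) and RBL1 had 31.9, 33.5 and 32.3 CPM (0.42 ± 0.08, edgeR, adjusted p = 0.00163), both above every SUM44F library. E2F8 went the other way, with 28.2, 30.9 and 28.5 CPM (-0.42 ± 0.07). The parental culture used moved some results. E2F1 and E2F2 had means of 50.2 and 26.7 CPM in SUM44PE and of 36.8 and 21.1 CPM in SUM44F. SUM44 LTED-A had 77.8 and 52.2 CPM, and SUM44 LTED-B had 76.2 and 30.3 CPM. Their rises were therefore smaller against SUM44PE, although E2F1 stayed called in both variants and E2F2 in LTED-A. Against SUM44PE in place of SUM44F, the RBL1 values fell to 0.23 in LTED-A and 0.30 in LTED-B, neither called, E2F5 was not called in LTED-B (-0.38), E2F8 was called higher in LTED-B (0.66), and RBL2 was called lower in LTED-B (-0.67).

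The order of the groups showed which levels could be told apart by their samples. For E2F1 it ran from MM134 LTED-E (113 CPM) and MM134 parental cells (109), which overlapped, through MM134 LTED-A (88.2), LTED-B (85.3) and LTED-D (85.0), which overlapped in turn, to SUM44 LTED-A (77.8) and LTED-B (76.2), which overlapped, and then SUM44PE (50.2) and SUM44F (36.8), each apart from the next. For E2F2 it ran from MM134 parental cells (61.4) to SUM44F (21.1), with SUM44 LTED-A (52.2) next after parental MM134 and overlapping MM134 LTED-D (51.1). For E2F8, MM134 LTED-E (40.1) fell among the SUM44 groups and overlapped SUM44 LTED-A (41.0) and SUM44F (38.8). For RBL2 each of the 4 SUM44 groups was apart from the next, and the 5 MM134 groups (49.1 to 50.7) overlapped.

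Across the 9 groups, with each cell line centred on its own mean, the log2 levels of some members ran together. Pearson's r over the 9 group means was 0.93 for E2F2 and E2F3, 0.89 for E2F1 and RBL1, 0.86 for E2F5 and RBL2 and 0.71 for E2F7 and E2F8, and -0.85 for E2F3 and E2F5. These values describe 9 points that share libraries, cell lines and, in the SUM44 groups, a large part of the range. The search covered 16788 genes whose mean reached 1 CPM. Those most like E2F1 were STIL (r = 0.984), CENPK (0.984) and TOPBP1 (0.983). For RBL1 they were PILRB (0.978), FANCM (0.975) and POLE2 (0.966), and for E2F2 MCM3 (0.983), DDX11-AS1 (0.962) and EFCAB14 (0.960). E2F3 was most like RAB23 (0.975), SLCO2B1 (0.962) and MDC1 (0.951), E2F4 like EEF1E1 (0.984), SKIC3 (0.984) and PCSK6-AS1 (0.980), E2F5 like FRG1HP (0.986), MIR9-1HG (0.976) and RCBTB1 (0.973), and E2F6 like DLEU7 (0.978), ACP1 (0.966) and REPS1 (0.961). E2F7 was most like DDX46 (0.945), ENSG00000278993 (0.933) and H2AC16 (0.924), E2F8 like RBBP5 (0.959) and THRAP3 (0.955), and RBL2 like TPTE2P2 (0.996), CD82 (0.987) and FAM20C (0.986).

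The genes that E2F factors control were listed apart from the members. Of 20 G1/S genes (DNA replication and nucleotide synthesis), 17 were called higher in SUM44 LTED-A and 17 in LTED-B, 16 of them in both, and none was called lower in either. Of all genes tested, 6.39% were called higher in LTED-A, 8.69% in LTED-B and 3.87% in both, and 4.75% were called lower in both. The replication licensing factor CDT1 rose by 1.27 and 1.37 on the log2 scale in LTED-A and LTED-B, the thymidylate synthase TYMS by 1.45 and 1.20, MCM10 by 1.17 and 1.25 and ORC1 by 1.09 and 1.32. The median log2 fold change of the list was 0.96 and 1.02, against -0.057 and -0.093 over all genes. Of 15 G2/M genes, 15 and 14 were called higher, 14 in both, among them CDC20 (1.35 and 1.34), AURKB (1.31 and 1.27), CENPE (2.13 and 1.23) and PLK1 (1.17 and 1.26). Leaving SUM44F replicate 1 out, 14 of the G1/S and 13 of the G2/M genes were called higher in both variants. Parental cultures also lay above SUM44F in these lists. In SUM44PE, 4 of 20 G1/S genes (median 0.29) and 6 of 15 G2/M genes (0.47) were called higher than in SUM44F, where 2.85% of all genes were. In parental MM134, 17 (1.26) and 14 (1.42) were called higher than in SUM44F, where 19.1% of all genes were. In MM134, no G1/S gene was called in 3 or more variants, where 6.66% of all genes were called higher and 6.83% lower under that rule, and of the G2/M genes TOP2A fell in all 4 variants (-1.07, -0.60, -0.80 and -0.65 for A, B, D and E) and CDK1 in 3 (-0.90, -0.74 and -0.78 for A, B and D, and -0.40 for E, not called). The medians in MM134 were -0.26 to 0.11 for the G1/S and -0.43 to 0.00 for the G2/M genes.

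A published E2F activation signature of 24 genes, which the study lists, was counted as well. In SUM44, 11 of 24 were called higher in LTED-A and 15 in LTED-B, 10 in both, and none lower, with ARHGAP11A (1.31 and 1.28), H2AZ1 (1.38 and 1.01), ZNF367 (1.23 and 1.00) and ATAD2 (0.91 and 1.00) among them, and the same number, 10, without SUM44F replicate 1. Against SUM44F, 1 of the 24 was called higher in SUM44PE (2.85% of all genes) and 19 in parental MM134 (19.1%). In MM134, 2 of 24 were called in 3 or more variants, 1 in each direction, against 6.66% (higher) and 6.83% (lower) of all genes: FKBP5, a steroid-regulated co-chaperone, rose in all 4 (0.97, 1.37, 2.01 and 1.26) and RET, a receptor kinase, fell in 3 (-1.34, -0.67 and -1.24 in LTED-A, LTED-B and LTED-E). In the comparison of responses, 19 of the 20 G1/S genes and 15 of the 15 G2/M genes were called lower in MM134 than in SUM44. So were 17 of the 24 signature genes, while 1 was called higher. Of all genes tested, 10.1% were called lower and 10.9% higher.

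**Figure D5:**
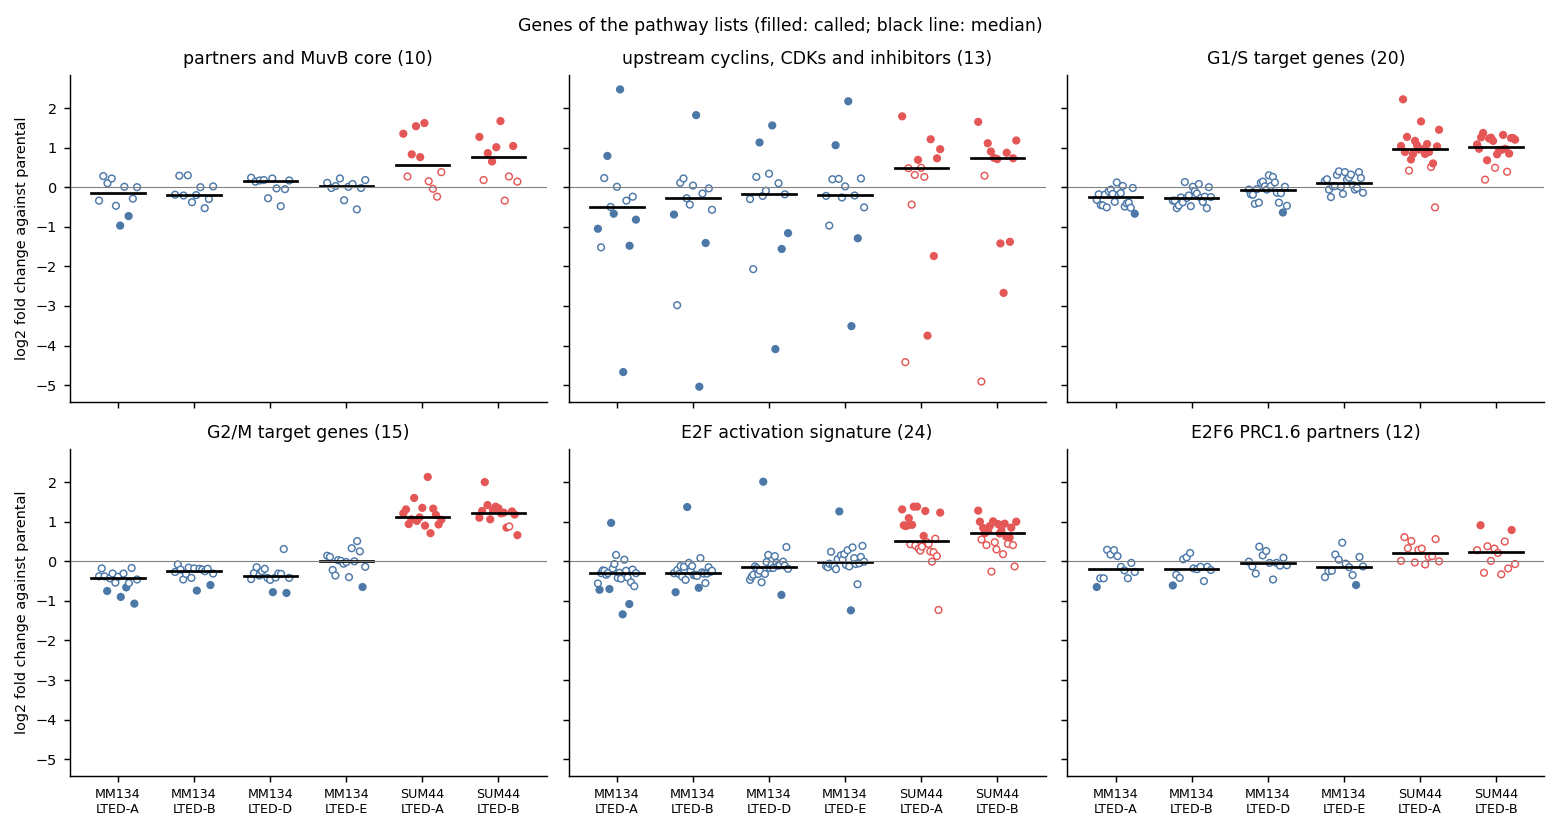
Log2 fold change against parental cells of each gene of 6 lists in the 6 LTED variants, with filled points for called genes, open points for the rest and a black line at the median of the list; the number of genes stands in each title. In SUM44 the medians of the G1/S and G2/M lists lie between 0.96 and 1.23, and in MM134 they lie between -0.43 and 0.11.

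Of the 10 genes that pair with E2F factors or form the MuvB core, which joins p107 or p130 in the DREAM repressor complex, 5 were called higher in both SUM44 variants (3.87% of all genes) and none in 3 MM134 variants (6.66% higher and 6.83% lower). These were MYBL2 (1.62 and 1.67) and FOXM1 (1.35 and 1.27), the activators that MuvB takes up after DREAM has come apart, and the MuvB subunits LIN52 (0.83 and 0.86), LIN9 (0.76 and 1.01) and LIN54 (1.54 and 0.65). The count was also 5 without SUM44F replicate 1. MYBL2 fell in MM134 LTED-A (-0.97). TFDP1, the dimerization partner of E2F factors, rose in SUM44 LTED-B, from 44.7 to 53.8 CPM in SUM44F to 100 to 106 CPM (log2 fold change 1.04, edgeR, adjusted p = 1.96e-06), and was at 40.6 and 43.6 CPM in LTED-A (-0.24). RB1, the retinoblastoma gene and the pocket protein of the activators, was called in no variant, with log2 fold changes of 0.15 and -0.34 in SUM44 LTED-A and LTED-B and mean levels of 47.7 to 51.6 CPM in the MM134 groups. LIN54, TFDP1 and RB1 were named after their values were seen.

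Upstream of the pocket proteins, 7 of 13 cyclins, kinases and inhibitors were called the same way in both SUM44 variants, 5 higher (3.87% of all genes) and 2 lower (4.75%), and 4 in at least 3 MM134 variants, 2 higher (6.66%) and 2 lower (6.83%). CDKN1A (p21), an inhibitor of cyclin-dependent kinases, had 67.0 to 86.9 CPM in SUM44F, 5.46 and 6.28 CPM in LTED-A and 12.2 to 12.9 CPM in LTED-B, and fell by 3.75 and 2.67 on the log2 scale. It also fell in MM134, from 49.4 to 51.0 CPM in parental cells to 1.37 to 4.82 CPM over the 4 variants, with log2 fold changes of -4.67, -5.04, -4.09 and -3.51. CDKN2B (p15) fell in all 6 variants (-1.74 and -1.38 in SUM44, -1.56 to -1.29 in MM134). CCND1 (cyclin D1) rose in SUM44, from 417 to 503 CPM in SUM44F to 1619 and 1630 CPM in LTED-A and 1427 to 1508 CPM in LTED-B (1.79 and 1.65), and was called lower in MM134 LTED-A (-1.05) and LTED-B (-0.69). CDKN2D (p19) rose in SUM44 (0.96 and 1.18) and fell in MM134 LTED-A (-0.82) and LTED-D (-1.16), with -0.57 and -0.51 in LTED-B and LTED-E, not called. In MM134, CDK6 rose in all 4 variants (2.47, 1.82, 1.56 and 2.17), and CCNE1 (cyclin E1) in 3 (0.79, 1.13 and 1.06 in LTED-A, LTED-D and LTED-E). In SUM44 LTED-B, CDK6 fell (-1.42) and CCNE1 rose (1.11), and in SUM44 LTED-A they were at 0.26 and -0.44, not called. Without SUM44F replicate 1, 4 were called higher and 2 lower in both SUM44 variants.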

How the data were processed

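RNA was sequenced from 27 libraries, 3 from each of 9 groups. Libraries were made with a stranded total RNA kit. The authors deposited expected counts per Ensembl gene, estimated with Salmon 0.6.0 on hg38 with Ensembl 82 and neither normalized nor filtered; the strand setting and any trimming are not given in the sources used here. Replicates 2 and 3 of SUM44 LTED-A were averaged. Estimated counts were rounded, genes with low counts were removed with filterByExpr, and TMM factors were computed. Quasi-likelihood tests of edgeR 4.0.16 (R 4.3.3) were run in separate fits for MM134 and SUM44, and in 1 fit of both lines for comparisons between lines. The SUM44 fit held SUM44F and the LTED variants. Another fit added SUM44PE and gave the comparison of SUM44PE with SUM44F. Genes past 1.5-fold with a Benjamini-Hochberg adjusted p under 0.001 were called. CPM values use the TMM-scaled totals. Symbols and positions came from GENCODE 44, in which 56434 of 60619 genes were found, and 7473 genes had no count. Of the listed pathway genes, those called alike in both SUM44 variants or in at least 3 MM134 variants were named, at most 4 for each list and line, in order of their smallest change. For each member the 3 genes most alike over the 9 group means of log2(CPM + 0.5) were named. An immune marker and 1 of these genes are not reported here. The members, the lists and these rules were chosen with earlier results of these data known. Scripts were tested on simulated data. DESeq2 1.42.0, other size factors, filters and thresholds, thinned counts, a replicate block, another parental group and the loss of each library were tried as alternatives.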

Additional observations from a re-analysis of the deposited data

Results flagged for a closer look

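The responses of MM134 and SUM44 to long-term estrogen deprivation differed for 5 members in the test of the difference itself (edgeR, log2 scale, MM134 minus SUM44). The values were -1.31 for E2F1, -1.46 for E2F2, -0.80 for E2F7, 0.75 for E2F5 and 0.66 for RBL2. For E2F7 the MM134 variants themselves ran from -0.56 to 0.49.

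The SUM44 variants differed in E2F2, by 0.79 (LTED-A minus LTED-B), and in E2F6, by -1.12. Among the MM134 variants, 2 of 10 members were called, a share close to the 19.6% of all genes called. These were E2F7, which differed by at most 1.05 between any pair of variants, and E2F8, by at most 0.98.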

How the results depend on the processing

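Of 2810 fold changes of members under the alternatives, 2696 kept their side of the threshold, 47 lost a call and 67 gained one, no called value changed sign, and the 40 uncalled values that did were at most 0.07 in size. Alternatives that changed only a threshold kept the fold changes of the report, so no sign could change there. Many other fits left out a library of a group outside the comparison. Those fits could move a fold change only little, so the number that kept their side says less than its size. The largest difference among the MM134 variants has no sign to change. With a minimum of 2-fold, the members called were 0 in MM134 LTED cells (2 over the 4 variants in the report), 4 in SUM44 LTED cells (11 over both variants), 1 between the SUM44 variants (2), 1 among the MM134 variants (2), 2 in the response (5) and 3 between parental MM134 and SUM44F (5). With no minimum fold they were 18 in MM134 LTED cells (of 40 tests) and 14 in SUM44 LTED cells (of 20), 9 among the MM134 variants, 8 in the response, 9 between the parental lines and 1 between SUM44PE and SUM44F (0 in the report). Shares of all genes called at these changed minimum folds were not counted, so the member counts cannot be set against them. Without 1 library at a time, 1 to 2 members were called between the SUM44 variants, 4 to 7 in SUM44 LTED-A, 4 to 5 in LTED-B and 5 to 7 in the response. Same-numbered replicates did not deviate together (r from -0.48 to 0.35 over 30 pairs in MM134 and from -0.22 to 0.33 over 15 pairs in SUM44), so the numbers do not pair the samples; with a replicate block 9 rather than 11 members were called in SUM44 LTED cells, since RBL1 (0.67) and RBL2 (-0.75) in LTED-A missed the adjusted p, and 2, 5, 2, 2, 0 and 5 in MM134 LTED cells, between the parental lines, among the MM134 variants, between the SUM44 variants, between SUM44PE and SUM44F and in the response, as in the report. The cause was not tested. Wells of 1 culture stand behind every p-value. Over all genes, 1990 were called between the SUM44 variants in the report, 3018 with DESeq2 and replicates 2 and 3 of SUM44 LTED-A kept apart, and 1104 to 2084 without 1 library; the alternative with DESeq2 and separate replicates was chosen after seeing the data.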
